A study of Mus musculus with 6 samples.

Results

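Gpnmb, Trem2, Spp1 and Mmp12 mark lipid-associated macrophages, the lipid-laden macrophages described in fatty tissue and in atherosclerotic plaques. They were examined here in resident peritoneal macrophages loaded with oxidized LDL (oxLDL). The members were fixed as a list of 4 Ensembl transcripts, 1 for each gene, and were not selected by a threshold on the values. They were chosen with earlier results of these data known, so the shares of all tested transcripts beside them give scale only. All 4 were found among the 81690 transcripts of the table: ENSMUST00000031840_at for Gpnmb, ENSMUST00000024791_at for Trem2, ENSMUST00000031243_at for Spp1 and ENSMUST00000005950_at for Mmp12. All 4 also passed the filter on low values, which left 40845 transcripts for testing.

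The cells were washed from the abdominal cavity of female C57BL/6J mice 8 to 12 weeks of age and kept for their adherence to the culture plate. One group received 25 µg/mL human LDL oxidized with copper sulfate for 24 h (oxLDL, n = 3 arrays), and the other received vehicle for the same 24 h (n = 3 arrays). In each of 3 experiments the cells of several mice were pooled and divided between both treatments, so that a vehicle and an oxLDL array of the same number share their cells. Both groups came from the same strain, and the model is a short culture of isolated cells. RNA was measured on the Affymetrix Mouse Exon 1.0 ST array, which has probes along the exons of each gene.

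Lipid-associated macrophages take up and store lipid, and are recognised by a shared set of transcripts that includes these 4. Trem2 is a surface receptor that binds lipids, lipoproteins and cell debris, and signals through the adaptor Tyrobp. Gpnmb is a transmembrane glycoprotein of lysosomes, phagosomes and the cell surface, and its gene is a target of the MITF/TFE family, the transcription factors of lysosome formation. Spp1 encodes osteopontin, a secreted phosphoprotein that binds integrins and CD44. Mmp12 is macrophage elastase, a secreted metalloproteinase that degrades elastin.

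The promoters of these genes are shown because all 4 transcripts moved in the same direction, and they let a reader see which of the common macrophage and stress motifs lie near each start. RefSeq held 6 promoter windows for the 4 genes on GRCm38.p6, 1 each for Gpnmb and Trem2 and 2 each for Spp1 and Mmp12, all on the plus strand. Which window belongs to the transcript on the array is not given. Printed are bases -120 to 20 counted from the annotated start, with no base 0, for every window that held a searched motif in this range, and capitals mark the motifs.
Gpnmb, chr6:49036398-49036537: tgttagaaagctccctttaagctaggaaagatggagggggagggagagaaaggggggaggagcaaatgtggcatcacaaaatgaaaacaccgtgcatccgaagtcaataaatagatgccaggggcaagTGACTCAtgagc
Trem2, chr17:48346281-48346420: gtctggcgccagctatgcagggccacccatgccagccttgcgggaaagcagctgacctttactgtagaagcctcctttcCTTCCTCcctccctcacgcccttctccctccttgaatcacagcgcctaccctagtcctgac
Spp1, chr5:104434991-104435130: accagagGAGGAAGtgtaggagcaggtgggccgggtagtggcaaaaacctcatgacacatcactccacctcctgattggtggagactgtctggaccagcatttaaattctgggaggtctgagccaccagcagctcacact
Mmp12, upstream window, chr9:7344277-7344416: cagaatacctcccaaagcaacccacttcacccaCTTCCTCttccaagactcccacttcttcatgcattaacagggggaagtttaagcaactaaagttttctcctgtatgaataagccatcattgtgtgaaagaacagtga
Mmp12, downstream window, chr9:7347254-7347393: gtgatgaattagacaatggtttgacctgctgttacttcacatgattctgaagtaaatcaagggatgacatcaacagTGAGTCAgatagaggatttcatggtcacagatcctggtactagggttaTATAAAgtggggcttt

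Each window of 300 bases, which ran from 250 bases before the start to 50 bases after it, was searched on both strands for 5 motifs. The AP-1 motif TGACTCA lay at bases 9 to 15 of Gpnmb and, on the minus strand, at bases -44 to -38 of the downstream window of Mmp12. It is found in 5.20% of the 32851 windows of the RefSeq table. The PU.1/ETS motif GAGGAAG, for the lineage factor of macrophages and its relatives, lay in Spp1 at bases -113 to -107, and on the minus strand in Trem2 at bases -41 to -35 and in the upstream window of Mmp12 at bases -87 to -81. This motif is held by 13.6% of all windows. TATAAA, the letters of the TATA box, was matched at bases 5 to 10 of the downstream window of Mmp12, after the annotated start. It was also matched at bases -211 to -206 of Spp1, outside the printed stretch, and by 13.6% of all windows. Whether either match acts as a TATA box was not tested. The E-box CACGTG, to which MITF/TFE factors bind, and the antioxidant response element core TGACNNNGC were matched in 0 of the 6 windows, against 7.15% and 12.4% of all windows. None of the matches overlapped, and a match describes the letters of the window only.

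All 4 transcripts were higher with oxLDL, and on all 3 pairs of arrays. Gpnmb rose 2.71-fold and Spp1 2.04-fold, whereas Mmp12 rose 1.52-fold and Trem2 1.28-fold. A transcript is said here to have risen at a q-value below 0.05 from limma, and to have been called when it also changed by at least 2-fold, the thresholds of the study's methods. The reported limma fit had no term for the experiment, so its standard errors, intervals and q-values do not use the pairing of the arrays. Fits with such a term are given as alternatives. By the first criterion 4 of 4 transcripts rose and 0 of 4 fell, where 10.7% of all tested transcripts rose and 30.8% fell. Spp1 missed this criterion with no filter, with a variance trend and robust estimation, and without oxLDL replicate 3. Trem2 missed it without both arrays of experiment 1. Both missed it with a term for the experiment and each transcript's own variance. By the second, 2 of 4, Gpnmb and Spp1, were called higher, where 0.686% of all tested transcripts were called higher. The count was 1, Gpnmb alone, without vehicle replicate 2, without oxLDL replicate 3 and with no filter. It was also 1 with a variance trend and robust estimation, and with a term for the experiment and each transcript's own variance. Without both arrays of experiment 2, Spp1 was below 2-fold. 0 of 4 were called lower, where 2.45% of tested transcripts were. The array measures RNA from a whole well, so that more RNA per cell cannot be told apart from a larger share of cells that carry it.

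**Figure D1:**
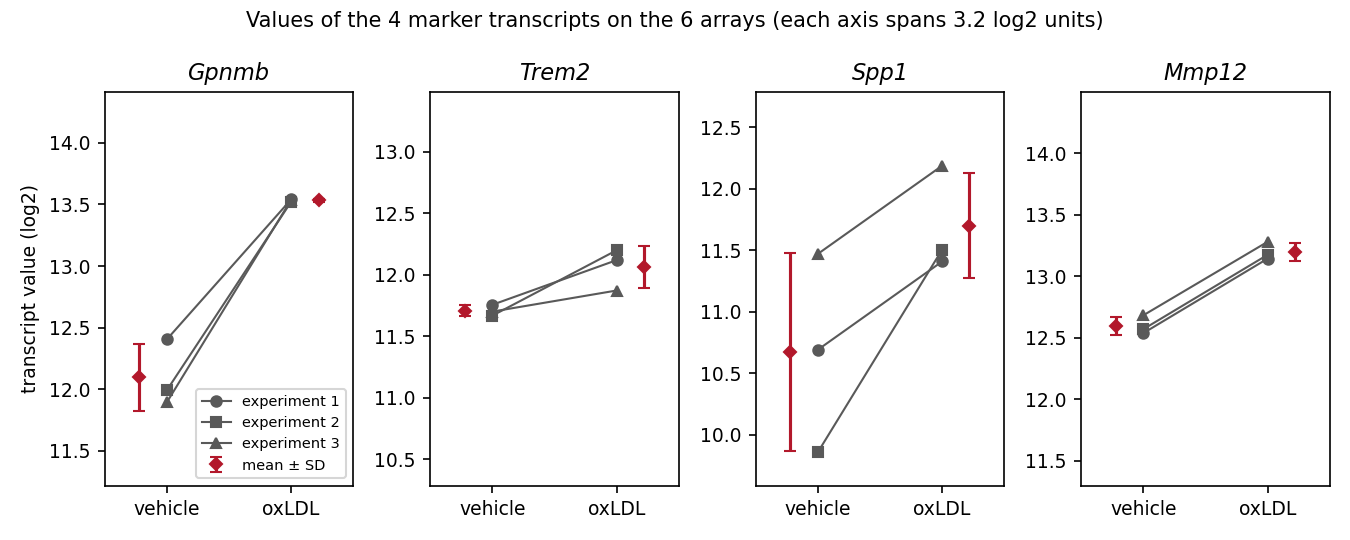
Transcript values (log2) of Gpnmb, Trem2, Spp1 and Mmp12 on the vehicle and oxLDL arrays, with a line joining the arrays of each experiment and red diamonds for the mean ± SD (n = 3). Every line goes up, the oxLDL values of Gpnmb coincide near 13.5, and the values of Spp1 are spread most widely.

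The arrays differed slightly in their overall scale, and this touches the smaller changes. The median over all transcripts lay between 8.64 and 8.80 (log2) on the 6 arrays. The SD over all transcripts was 1.31, 1.31 and 1.35 on vehicle arrays 1, 2 and 3. It was lower on every oxLDL array, at 1.25, 1.29 and 1.23. In experiments 1, 2 and 3 the median tested transcript differed by -0.06, -0.02 and -0.24 (log2, oxLDL minus vehicle). Over the fit as a whole the median tested transcript changed by -0.10 (log2), which became -0.04 with each array centred on its median and 0.02 after quantile normalization. With no filter the median change was 0.0018, so the shift lay among the brighter transcripts that were tested. The shares of tested transcripts that rose or fell are from the deposited scale and carry this shift. Markers of the macrophages and of other peritoneal cells were not analysed here, because 0 of the 81690 transcript identifiers were found in the reference gene table.

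Gpnmb, the lysosomal glycoprotein, had the largest rise. Its value (log2) was 12.40, 11.99 and 11.89 on vehicle arrays 1, 2 and 3. With oxLDL it was 13.54, 13.52 and 13.54. The groups were far apart, with 1.12 between the highest vehicle and the lowest oxLDL array. The mean was 12.10 ± 0.27 (SD, n = 3) for vehicle and 13.53 ± 0.01 (SD, n = 3) for oxLDL. The log2 fold-change was 1.44 (standard error 0.13, 95% confidence interval 1.15 to 1.72, limma q = 1.65e-05), which placed it at rank 93 of the 40845 tested transcripts in order of rise.

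The experiments differed in how far Gpnmb rose, by 1.14, 1.53 and 1.65 (log2) in experiments 1, 2 and 3. This variation came from the vehicle arrays. The vehicle array with the highest Gpnmb, that of experiment 1, had the smallest rise, and the SD among the oxLDL arrays was 0.01. Only 0.663% of tested transcripts had a smaller SD among the oxLDL arrays, while 95.9% had a smaller SD among the vehicle arrays. The closeness of the oxLDL values depended on the scaling of the arrays, for their SD was 0.06 with each array centred on its median and 0.09 after quantile normalization of the deposited values. The oxLDL value of 13.53 lay below the highest value of any transcript on these arrays, which was 14.27 to 14.37 on the oxLDL arrays, and whether the probes approached saturation was not tested.

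Spp1, which encodes osteopontin, had the second largest rise and by far the most variable values. It was 10.69, 9.86 and 11.47 (log2) on vehicle arrays 1, 2 and 3. On the oxLDL arrays it was 11.41, 11.50 and 12.19. The groups overlapped, since vehicle array 3 was above oxLDL array 1, and experiment 3 had the highest Spp1 under both treatments. The mean was 10.67 ± 0.81 (SD, n = 3) for vehicle and 11.70 ± 0.42 (SD, n = 3) for oxLDL. The log2 fold-change was 1.03 (standard error 0.34, 95% confidence interval 0.27 to 1.79, limma q = 0.0178), just past the 2-fold threshold and at rank 260 of the tested transcripts.

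Within the experiments Spp1 was higher with oxLDL by 0.718, 1.65 and 0.717 (log2). Experiments 1 and 3 thus gave 1.64-fold each, and experiment 2, with the lowest vehicle value, gave 3.13-fold. The within-group SD of 0.64 exceeded that of 99.8% of tested transcripts. The call depended on experiment 2. With both arrays of experiment 2 left out the log2 fold-change was 0.72, below 2-fold, and with those of experiment 1 or 3 left out it was 1.18. With a single array left out, which breaks a pair and lets the level of the experiment enter the difference, it was 0.62 without vehicle replicate 2 (limma q = 0.0417), 0.78 without oxLDL replicate 3 (limma q = 0.0681) and 1.43 without vehicle replicate 3. With the experiment as a random effect the limma q-value was 0.0033, and with a term for the experiment and the transcript's own variance, a fit with few degrees of freedom, it was 0.0624.

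Mmp12, macrophage elastase, rose by less than 2-fold but by nearly the same amount in each experiment. Its vehicle values were 12.54, 12.57 and 12.68 (log2) in experiments 1, 2 and 3. The oxLDL values were 13.14, 13.17 and 13.28. The groups did not overlap, and the order of the experiments was the same under both treatments. The mean was 12.60 ± 0.08 (SD, n = 3) for vehicle and 13.20 ± 0.07 (SD, n = 3) for oxLDL, and the log2 fold-change was 0.60 (standard error 0.09, 95% confidence interval 0.40 to 0.80, limma q = 0.000352). This placed Mmp12 at rank 962 of the tested transcripts.

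The differences of Mmp12 within the experiments were 0.606, 0.605 and 0.598 (log2). Their SD of 0.0045 compares with a median of 0.141 over the tested transcripts, and 23 of the 40845 had a smaller one. This closeness also depended on the scaling. With median centring the differences were 0.64, 0.61 and 0.76 (SD 0.08), and after quantile normalization they were 0.71, 0.59 and 0.76 (SD 0.09). The log2 fold-change itself was somewhat larger under both scalings, at 0.67 and 0.69.

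Trem2, the lipid receptor, rose least. It was 11.76, 11.67 and 11.70 (log2) on vehicle arrays 1, 2 and 3. With oxLDL it was 12.12, 12.20 and 11.87. The groups did not overlap, but the lowest oxLDL array, that of experiment 3, was only 0.12 above the highest vehicle array. The mean was 11.71 ± 0.04 (SD, n = 3) for vehicle and 12.06 ± 0.17 (SD, n = 3) for oxLDL. The log2 fold-change was 0.36 (standard error 0.10, 95% confidence interval 0.12 to 0.59, limma q = 0.0107), at rank 2575 of the tested transcripts, and 6.30% of tested transcripts had a log2 fold-change at least as large, whatever their q-value.

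Within the experiments Trem2 was higher with oxLDL by 0.36, 0.53 and 0.17 (log2). The smallest difference fell in experiment 3, the experiment in which the typical tested transcript was lowest on the oxLDL array. With each array centred on its median, the differences of Trem2 were 0.39, 0.54 and 0.33, and after quantile normalization they were 0.45, 0.54 and 0.41. The experiments were closer to each other on these scales, with an SD of 0.11 and 0.07 against 0.18 for the deposited values. With a term for the experiment and the transcript's own variance, the q-value of Trem2 was 0.0612, so its rise was not significant in that fit. Nor was it with both arrays of experiment 1 left out (limma q = 0.116).

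**Figure D2:**
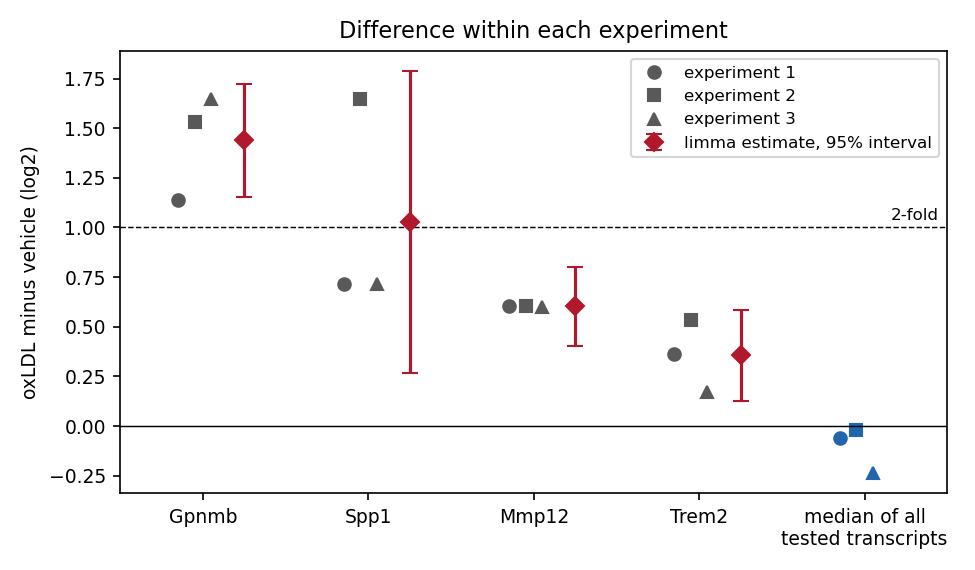
Difference between oxLDL and vehicle (log2) within each experiment for the 4 transcripts, in order of size, with red diamonds for the limma estimate and its 95% confidence interval, and in blue the median difference of all tested transcripts. The 3 points of Mmp12 lie on each other at 0.60, Spp1 has its point of experiment 2 at 1.65 and the others at 0.72, and the blue points lie at or below 0.

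The rise was largest in Gpnmb, followed by Spp1, Mmp12 and Trem2, and neighbours in this order were compared within the experiments. The order, and so the sign of each mean difference, was taken from these same values. Spp1 came before Gpnmb when vehicle replicate 3 was left out, at 1.43 against 1.34 (log2). With 3 experiments the smallest p the exact test allows is 0.25, so it could not reach significance for any of them, and the differences are given beside their spread. The rise of Gpnmb exceeded that of Spp1 by 0.41 ± 0.52 (log2, SD, n = 3) and was the larger in 2 of 3 experiments (exact permutation test with swaps within experiments, two-sided, p = 0.5, adjusted p = 0.5 over 3 comparisons). Spp1 exceeded Mmp12 by 0.42 ± 0.53 (SD, n = 3) and in 3 of 3 experiments, though by 0.11 and 0.12 in experiments 1 and 3 (exact permutation test, p = 0.25, adjusted p = 0.375). Mmp12 exceeded Trem2 by 0.25 ± 0.18 (SD, n = 3), also in 3 of 3 experiments (exact permutation test, p = 0.25, adjusted p = 0.375). The first 2 of these differences were smaller than their SD, and the third was larger than its SD.

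**Figure D3:**
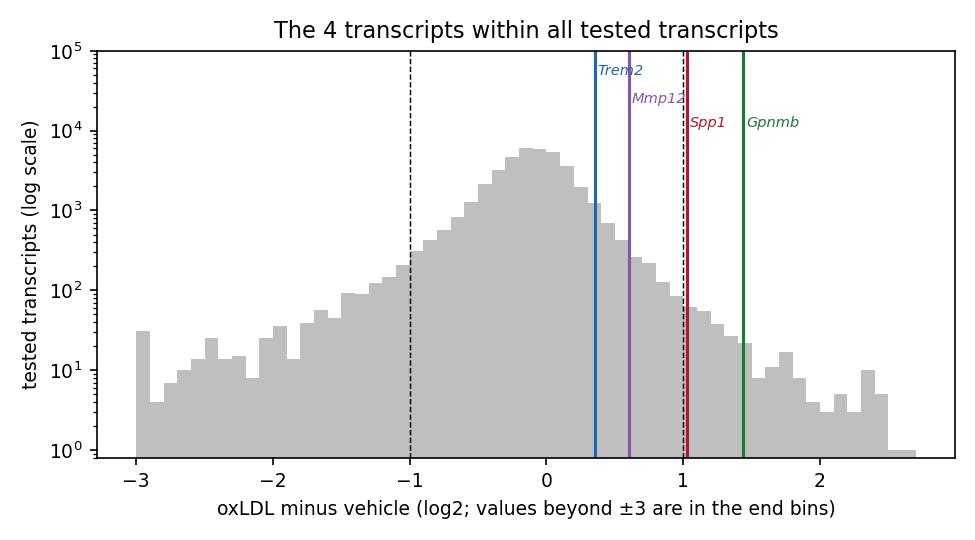
Number of tested transcripts (log scale) by the difference between oxLDL and vehicle (log2, in steps of 0.1), with coloured lines for the 4 marker transcripts and dashed lines at 2-fold. Gpnmb and Spp1 lie to the right of the 2-fold line, and Mmp12 and Trem2 between 0 and that line.

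Read against the other tested transcripts, the 4 markers lay in the upper part of the distribution of changes. The log2 fold-change was smaller in 99.8% of tested transcripts for Gpnmb, in 99.4% for Spp1, in 97.6% for Mmp12 and in 93.7% for Trem2. Of the 4 markers, 3 had every oxLDL array above every vehicle array, where 12.7% of tested transcripts did. The reverse order was seen in 0 of 4 markers and in 32.5% of tested transcripts. All 3 experiments gave a higher value with oxLDL for 4 of 4 markers and for 20.3% of tested transcripts. Among the brightest 25% of transcripts, to which all 4 belong, 13.0% rose and 0.930% were called higher.

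The transcripts with the most similar profile were sought by Pearson's r over the 6 arrays. The closest to Gpnmb was ENSMUST00000163769 (r = 0.9998), at a mean of 12.30 ± 0.25 (SD, n = 3) for vehicle and 13.67 ± 0.02 (SD, n = 3) for oxLDL, on the log2 scale. The closest to Trem2 was ENSMUST00000165013 (r = 0.9997), at 11.73 ± 0.05 with vehicle and 12.13 ± 0.19 with oxLDL (SD, n = 3). For Spp1, 1 other row of the table held identical values on all 6 arrays. Rows of transcripts that share probes follow each other by construction, and the genes of these rows are not given. An r above 0.9 was common over so few arrays, with 1612 of 40841 tested transcripts for Gpnmb and 768 of 40840 for Spp1.

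**Figure D4:**
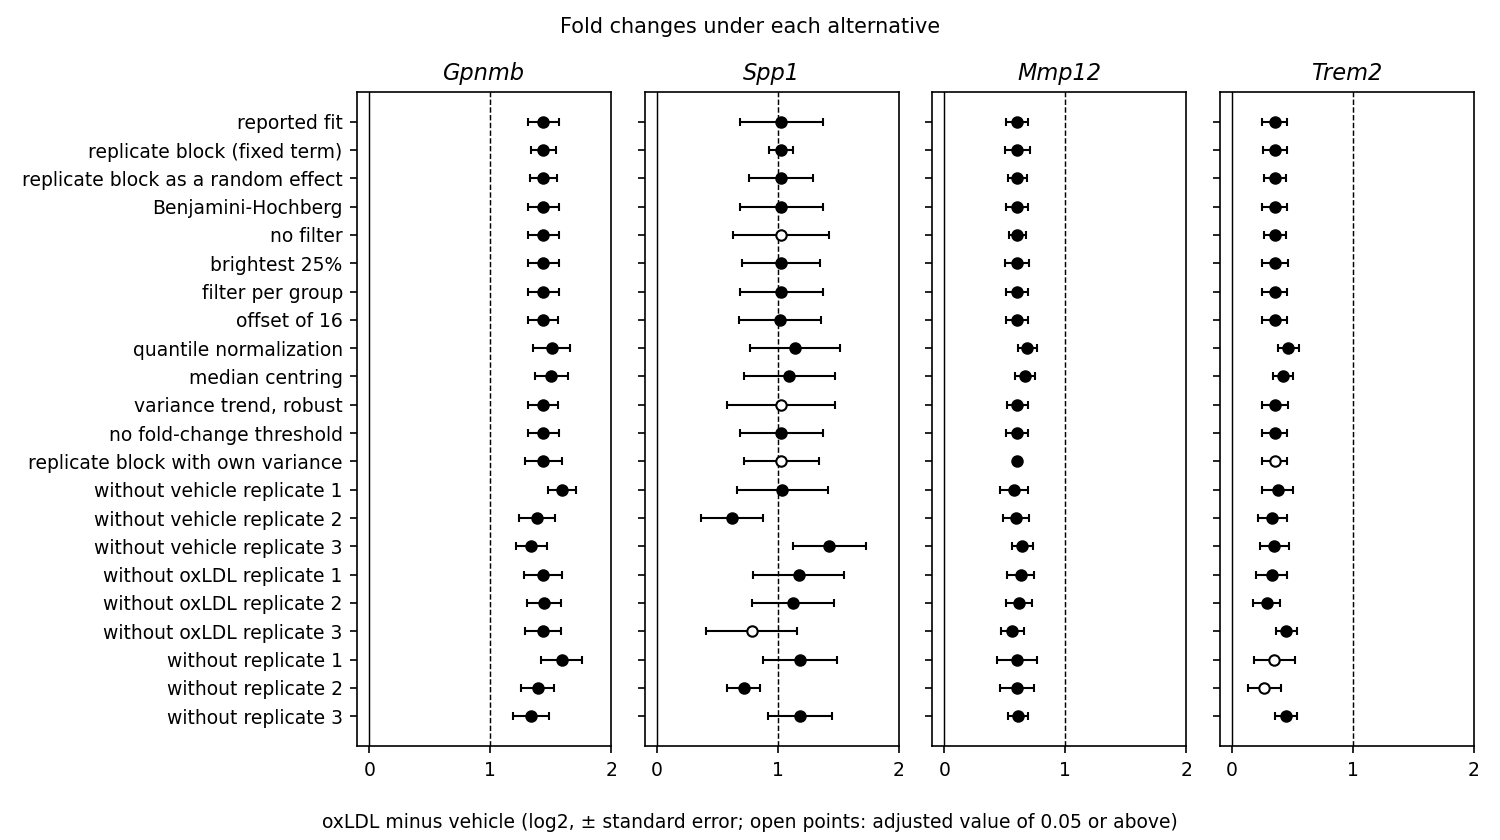
Difference between oxLDL and vehicle (log2, with the standard error) for the 4 transcripts in the reported fit and under each alternative way of processing (without replicate 1, 2 or 3 leaves out both arrays of that experiment), with the 2-fold threshold dashed and open points where the q-value or adjusted p was 0.05 or above. The fixed block and the fit without replicate 2 gave all transcripts a common variance, so whether their points are open or filled is not to be read. All points lie above 0, those of Gpnmb lie past 2-fold and those of Mmp12 and Trem2 below it, and those of Spp1 range from 0.62 to 1.43.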

How the data were processed

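Probe measurements were quantile-normalized by the authors with no background adjustment, and PLIER gave 1 log2 value per transcript and array in the deposited table (CustomCDF version 15 probe sets, Ensembl release 65). That the base is 2 was inferred from the values, which span 5.95 to 14.42, and any offset before the logarithm is not stated. Detection calls were not used here. Transcripts with a mean over the 6 arrays above 8.74, the median, were tested with limma 3.58.1 in R 4.3.3 (prior proportion 0.1, no covariate, two-sided, Storey q-values). The script was tested on simulated data. Figures were drawn with matplotlib 3.10.9. The 4 members, the motifs and the rule for similar transcripts (highest Pearson r, at most 2 named) were chosen with earlier results of these data known. Lists of other genes could not be paired with rows. Deviations from the group means correlated at 0.51, 0.67 and 0.58 between same-numbered arrays. The other combinations gave -0.53 to -0.04, but deviations cancel within a group of 3 arrays, so positive values force negative ones elsewhere. By the positive correlations the numbers pair the arrays, as the pooled cells of the methods imply. The 3 arrays per group limit the precision.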

Additional observations from a re-analysis of the deposited data

How the results depend on the processing

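No result changed direction under 17 alternatives set in advance and 4 chosen after seeing the data, the replicate block with each transcript's own variance and the fits without both arrays of an experiment. Settings of the filter, the variance, the adjustment, the replicate block or the threshold left the fold-changes as they were and could not reverse one. Nor could leaving out both arrays of an experiment, since every marker was higher with oxLDL in all 3 experiments. Gpnmb was called under each alternative other than the fixed replicate block and the fit without experiment 2, whose q-values are not used. The call of Spp1 was lost with no filter (log2 fold-change 1.03, limma q = 0.0567), with a variance trend and robust estimation (1.03, limma q = 0.057) and with the replicate block and its own variance (1.03, limma q = 0.0624). The number of markers called higher was then 1 in place of 2. With no fold-change threshold it was 4, since Trem2 (0.36) and Mmp12 (0.60) were then called. With the replicate block as a random effect it was 2. As a moderated fixed term the block gave all transcripts a common variance, so the q-values and the count of that fit are not used. Benjamini-Hochberg adjustment gave Spp1 an adjusted p of 0.0462 in limma.

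When single arrays were left out, the log2 fold-change ranged from 1.34 to 1.59 for Gpnmb, 0.62 to 1.43 for Spp1, 0.56 to 0.65 for Mmp12 and 0.29 to 0.45 for Trem2, with 1 to 2 markers called higher and 0 to 0 called lower. The count was 1 without vehicle replicate 2 and without oxLDL replicate 3. With both arrays of an experiment left out, the ranges were 1.34 to 1.59 for Gpnmb, 0.72 to 1.18 for Spp1, 0.60 to 0.61 for Mmp12 and 0.27 to 0.45 for Trem2. Without experiment 2, limma gave all transcripts a common variance, so no count is given, and Spp1 was below 2-fold. Quantile normalization raised all 4 fold-changes, to 1.51, 1.14, 0.69 and 0.47 in the same order, and moved the calls over all transcripts from 280 higher and 1001 lower to 383 and 753. Signal over background was not assessed.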
